A study of Caenorhabditis elegans with 2 samples.

Results

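The genes described here are the unclassified non-coding RNA (ncRNA) genes of Caenorhabditis elegans that stand apart from the genes of tRNAs, snoRNAs and snRNAs. They are all nuclear genes to which the Ensembl annotation of build WBcel235 (ce11) gives the biotype ncRNA and that lie more than 100 bp from every tRNA, snoRNA and snRNA gene. That rule, which used no peak, took 7306 of 7764 nuclear ncRNA genes, out of 46890 nuclear genes of any biotype. Each was given the strongest peak whose summit lay within 100 bp of the gene.

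The peaks came from anti-GFP chromatin immunoprecipitation and sequencing (ChIP-seq) of DUXL-1, a homeodomain protein, in whole hermaphrodite worms at the L4 larval stage. Strain OP470, genotype unc-119(tm4063) III; wgIs470, carried an integrated transgene that adds GFP and FLAG to the C-terminus of DUXL-1, and chromatin was sheared by sonication. There were 2 biological replicates of this 1 group, with no other genotype, stage or treatment, so no groups could be compared and no test between conditions was possible. Whole worms mix all tissues, and a control library is not analysed here, so whether the tagged protein produced a given peak was not tested.

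The biotype ncRNA is what remains after RNA genes with a known class have been named. It holds a few well-studied RNAs, such as the RNA of RNase P, which trims the leader off tRNA precursors, and the RNA of the signal recognition particle (SRP), which directs secreted proteins to the endoplasmic reticulum. Most other members are short transcripts known only by a sequence name. RNase P RNA and SRP RNA are transcribed by RNA polymerase III, the enzyme that also makes tRNAs. Some genes of this enzyme are read from a promoter with a proximal sequence element and a TATA box upstream of the start.

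The sequences below, read from the WBcel235 assembly of RefSeq, show where the strongest peaks lay. Each holds the summit and the 50 bases on either side, plus strand. The 4 peaks of highest signal whose sequence could be shown are given for each of 3 locations. Capitals mark any of 6 words searched on both strands: TAATTA (a core of homeodomain sites), GTTCNANNC (a core of the B box inside RNA polymerase III genes), the TATA word TATAAA, the repeat word GAGAGA, the E-box CACGTG and the word GCGCAGGG (a core of the X dosage compensation motif). The first 4 belong to genes in promoters of protein-coding genes.
F56F3.10, chrIII:4475603-4475703: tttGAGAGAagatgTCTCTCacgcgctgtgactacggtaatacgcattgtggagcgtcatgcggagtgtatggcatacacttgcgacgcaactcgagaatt
F54D5.22, chrII:11545418-11545518: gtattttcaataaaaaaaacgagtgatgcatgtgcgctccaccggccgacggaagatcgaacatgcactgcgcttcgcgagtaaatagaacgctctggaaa
F26F4.14, chrIII:4899876-4899976: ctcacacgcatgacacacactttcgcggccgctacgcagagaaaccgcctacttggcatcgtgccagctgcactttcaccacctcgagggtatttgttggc
F08G2.13, chrII:13834476-13834576: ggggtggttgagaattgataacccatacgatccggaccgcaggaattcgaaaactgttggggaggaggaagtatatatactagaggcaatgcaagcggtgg

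The next 4 lay at genes in introns of protein-coding genes, outside promoters.
F47F6.15, chrII:1246995-1247095: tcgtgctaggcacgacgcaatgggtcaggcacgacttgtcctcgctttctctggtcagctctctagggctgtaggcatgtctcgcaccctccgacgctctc
srpr-2.2, chrIII:5031522-5031622: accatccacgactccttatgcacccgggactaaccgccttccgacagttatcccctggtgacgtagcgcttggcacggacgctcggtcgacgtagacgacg
T01C8.9, chrX:16797042-16797142: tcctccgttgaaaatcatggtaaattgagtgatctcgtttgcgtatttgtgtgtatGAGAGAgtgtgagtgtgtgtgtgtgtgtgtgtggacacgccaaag
W01D2.8, chrII:14801400-14801500: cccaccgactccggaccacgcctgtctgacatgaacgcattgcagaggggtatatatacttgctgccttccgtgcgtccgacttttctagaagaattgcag

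The last 4 lay at genes outside both.
ZK384.7, chrV:18737796-18737896: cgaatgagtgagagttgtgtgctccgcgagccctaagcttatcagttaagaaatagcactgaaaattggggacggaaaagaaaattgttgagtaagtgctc
F22E12.9, chrV:10466722-10466822: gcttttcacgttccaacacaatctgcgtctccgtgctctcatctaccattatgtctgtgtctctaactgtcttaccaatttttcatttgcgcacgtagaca
R03E9.10, chrX:6743971-6744071: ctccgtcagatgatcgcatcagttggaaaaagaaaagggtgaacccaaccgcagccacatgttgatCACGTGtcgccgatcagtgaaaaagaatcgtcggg
T14F9.7, chrX:2219188-2219288: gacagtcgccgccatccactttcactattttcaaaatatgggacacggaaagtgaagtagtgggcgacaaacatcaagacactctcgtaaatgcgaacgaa
Of these 12 windows 3 hold one of the words, and none holds TAATTA.

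Few of these genes had a peak. A peak of the thresholded list, which the authors cut on the irreproducible discovery rate (IDR), lay at 167 of the 7306 genes, 2.29% (95% Wilson interval 1.97 to 2.65%), beside 3.58% of all nuclear genes. That background includes tRNA, snoRNA and snRNA genes and their neighbours. Among the 37478 other genes that lie equally far from small RNA genes, most of them piRNA or protein-coding genes, 701 had a peak (1.87%, interval 1.74 to 2.01%), so the share at these ncRNA genes was below the one and above the other. Intervals here cover counting error over genes or peaks only. The 167 genes shared 126 distinct peaks. A single gene stood at 87 of these peaks, 2 genes stood at 37 and 3 genes at 2, so neighbouring or overlapping genes were not independent. In the candidate list of the pooled replicates, which reaches far below the threshold, 1321 genes (18.1%, interval 17.2 to 19.0%) had a candidate, at 1071 distinct candidates, beside 27.1% of all nuclear genes. A thresholded peak that was also among the 1980 strongest candidates of both replicates stood at 91 genes (1.25%, interval 1.02 to 1.53%), beside 1.99% of all nuclear genes. The other 5985 genes had no candidate at all.

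Other gene types that lie equally far from small RNA genes had both higher and lower shares. A thresholded peak stood at 658 of 19453 protein-coding genes (3.38%) and 12 of 189 lincRNA genes (6.35%). Such a peak stood at 8 of 259 miRNA genes (3.09%, interval 1.57 to 5.98%). Antisense RNA genes had 2 of 96 (2.08%, interval 0.573 to 7.28%). A peak stood at 17 of 2116 pseudogenes (0.803%) and 4 of 15345 piRNA genes (0.0261%). The share for these ncRNA genes thus lay between those of protein-coding genes and pseudogenes. Its interval counts genes that share a peak as separate, so it is too narrow to set gene types apart. The window searched grows with the gene, and these shares were not adjusted for gene length.

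The share changed abruptly at the 100 bp limit. Summits were also assigned within 100 bp, so a summit inside a small RNA gene was out of reach of ncRNA genes beyond that limit. The place of the step is thus tied to the rule, and how much of the step the rule sets was not tested. Just outside the 100 bp limit, none of 21 ncRNA genes at over 100 and up to 200 bp from a small RNA gene had a thresholded peak. That allows a share of up to 15.5% (upper Wilson limit). At over 200 and up to 500 bp from a small RNA gene, 1 of 56 had a peak. Just inside the limit, among genes left out by the rule, 15 of 32 had a peak at 1 to 100 bp (46.9%). The same held for 192 of 426 ncRNA genes that overlap a small RNA gene (45.1%). Farther away the share was low throughout, with 21 of 468 genes (4.49%) at 1001 to 5000 bp and 141 of 6685 (2.11%) beyond 5000 bp.

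Location relative to protein-coding genes went with the share. Among genes in a promoter, taken as 1000 bp upstream to 200 bp downstream of the start of a protein-coding transcript, 114 of 2348 had a thresholded peak (4.86%). In introns outside promoters 18 of 2212 had one (0.814%), and in neither place 35 of 2746 (1.27%). Promoters thus held 68.3% of the genes with a peak (interval 60.9 to 74.8%) beside 32.1% of all 7306 genes. Introns outside promoters held 10.8% of the genes with a peak (interval 6.93 to 16.4%) beside 30.3% of all. The remaining 21.0% with a peak lay in neither, beside 37.6% of all. A further 16 of the genes counted in promoters also lay in an intron, so 34 of 2915 genes in any intron had a peak. Thresholded summits elsewhere lay mostly in promoters too. Outside small RNA windows, 80 of the 127 summits within 100 bp of these genes lay in promoter bases, as did 875 of the 1467 other summits. The lean to promoters was thus not particular to these genes.

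**Figure D1:**
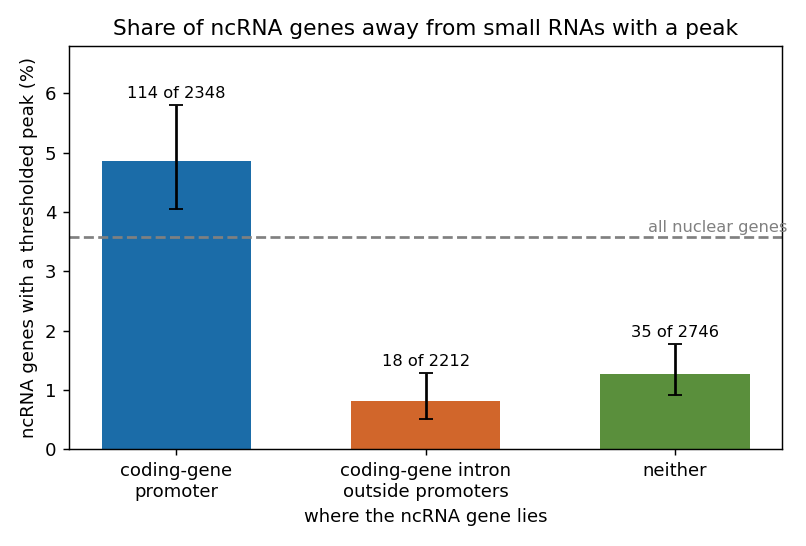
Percent of ncRNA genes away from small RNAs with a thresholded peak (y axis) by where the gene lies (x axis), with 95% Wilson intervals as error bars, counts above the bars and a dashed line at the 3.58% of all nuclear genes, small RNA genes included. The bar for promoters, at 4.86%, stands above that line, and the bars for introns (0.814%) and neither (1.27%) stand below it.

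The same genes can be read per base. Within 100 bp of them lay 127 thresholded summits in 2.19 Mb, a density of 58.0 per Mb, against 1467 summits in 97.76 Mb, or 15.0 per Mb, in the rest of the nuclear genome once small RNA windows were left out of both. The ratio was 3.86. One of the 127 summits was no gene's strongest, which leaves the 126 peaks. By kind of base the ratio was 3.56 in promoter bases (122 against 34.4 per Mb), 4.29 in intron bases (23.9 against 5.57 per Mb) and 3.58 in all other bases (34.7 against 9.71 per Mb). Without coding-gene exons those other bases gave the lowest ratio, 2.96 (36.0 against 12.1 per Mb). The intron ratio rests on 14 summits. So a base near one of these genes held a summit more often than other bases of its kind.

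**Figure D2:**
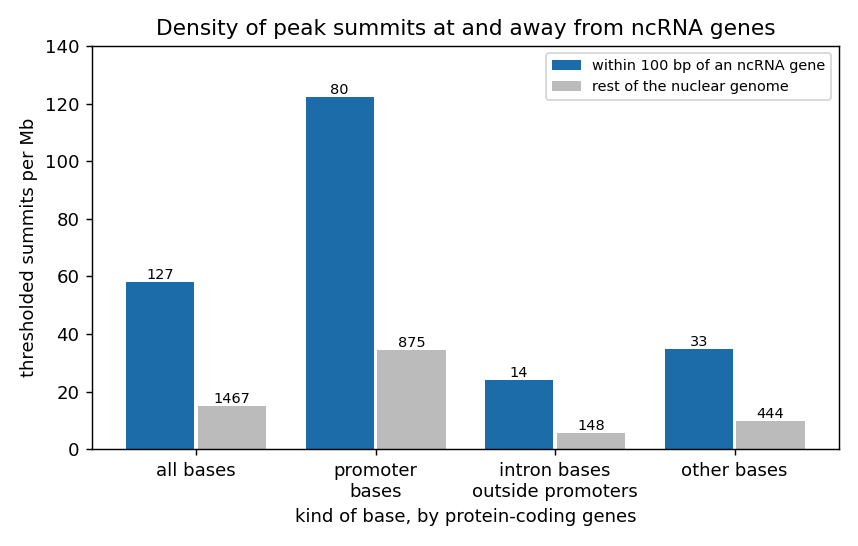
Thresholded summits per Mb (y axis) within 100 bp of ncRNA genes away from small RNAs (blue) and in the rest of the nuclear genome (grey), by kind of base (x axis), with the number of summits above each bar. In each kind of base the blue bar is the higher one, with ratios between 3.56 and 4.29.

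Gene length went with the share too. A thresholded peak stood at 2 of 149 genes of up to 50 bp (1.34%), 72 of 3462 genes of over 100 and up to 150 bp (2.08%), 45 of 1289 genes of over 200 and up to 500 bp (3.49%) and 6 of the longer genes (5.94%, interval 2.75 to 12.4%). The window searched grows with the gene, and the part of length in the other shares was not tested. The median length was 148 bp for genes with a peak and 141 bp for all 7306.

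Summits mostly lay inside the genes. Of the 126 peaks, 87 had their summit inside the nearest of the genes to which the peak was assigned. In 74.9% of all 1980 thresholded regions, which had a median width of 280 bp, the summit was the midpoint of the region. How precisely such summits place the signal was not tested. The median summit lay 75 bp downstream of that gene's start. Counted by gene, 113 held a summit, 28 lay 1 to 50 bp from the nearest one and 26 lay 51 to 100 bp from it. Just beyond the limit, a summit lay at over 100 and up to 150 bp from 18 further genes and at up to 200 bp from another 22. A protein-coding start lay within 1000 bp of 86 summits, at a median distance of 456 bp over all 126, beside 546 bp for all nuclear thresholded peaks. The rule places summits within 100 bp of an ncRNA gene and sets no limit on protein-coding starts, so these distances were not compared with each other. At 33 of the 126 summits, 2 or more protein-coding genes had a start within 1000 bp, and the nearest is the one named.

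Many of these genes overlap another one on the opposite strand. A peak stood at 76 of 2398 genes with such a partner (3.17%, interval 2.54 to 3.95%) and at 91 of 4908 without one (1.85%, interval 1.51 to 2.27%). In promoters the counts were 58 of 731 with a partner (7.93%, interval 6.19 to 10.1%) and 56 of 1617 without one (3.46%, interval 2.68 to 4.47%). Both genes of an overlapping pair usually lie within reach of the same summit, so these counts hold some peaks more than once. The intervals treat such genes as separate and are thus too narrow.

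Signal, the enrichment that the authors' peak caller gave each region in its own units, ran from 65.6 to 412 over the 126 peaks. The median was 96.5, beside 94.2 for all 1965 nuclear thresholded peaks, and 3 of the 126 peaks were among the 100 strongest of the list. By location the median was 113 at 84 peaks of genes in promoters, 83.2 at 14 in introns and 84.0 at 28 in neither. The ranges of all 3 locations overlapped from 66.2 to 248. Of the peaks at these genes, 69 of 126 were among the top candidates of both replicates (54.8%, interval 46.1 to 63.2%), beside 51.8% of all nuclear thresholded peaks and 47.7% of the 1468 that lie at none of these genes and outside small RNA windows. With a reciprocal overlap of 50% in place of 1 bp, 35.7% of the 126 were found in both. Under the 1 bp rule, replicate 1 alone held 29, replicate 2 alone held 19 and 9 were among the top candidates of neither.

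**Figure D3:**
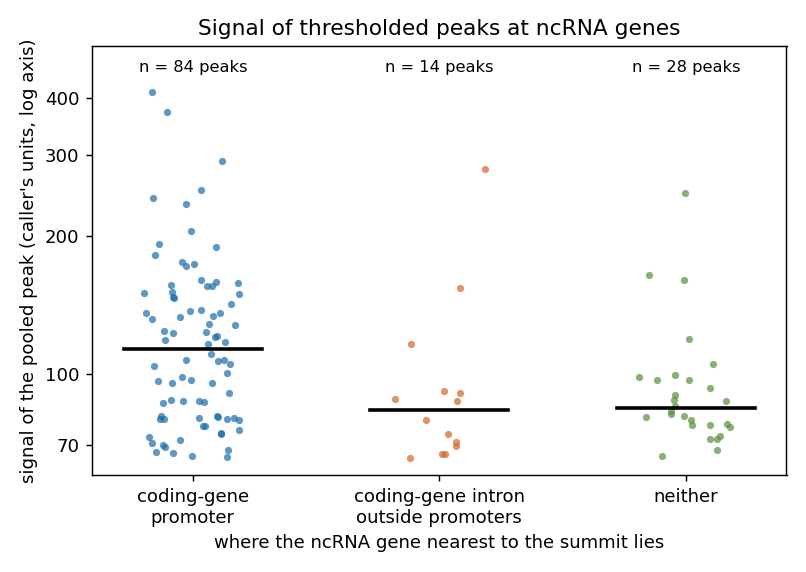
Signal of each of the 126 distinct thresholded peaks (y axis, the caller's units on a log axis) by where the nearest ncRNA gene lies (x axis), 1 point per peak, with a black line at the median. The medians are 113 for promoters, 83.2 for introns and 84.0 for neither, and the points of the 3 locations overlap widely.

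The highest signals at these genes were found in promoters of protein-coding genes. Y65B4BR.10, a gene of 128 bp at chrI:536804-536931, had the strongest peak, with a signal of 412 in the pooled list, 199 in replicate 1 and 211 in replicate 2. Its summit lay 249 bp upstream of the start of wwp-1, which encodes a HECT-type ubiquitin ligase. The pair F56F3.10 and F56F3.11 on chromosome III shared a summit 265 bp upstream of rps-1, a gene for a protein of the small ribosomal subunit, with a signal of 374 in the pooled list, 214 in replicate 1 and 161 in replicate 2. At F54D5.22, a name carried by 2 overlapping gene records, the pooled signal was 292 and the replicate signals were 145 and 136, at a summit 233 bp upstream of dnj-13, which encodes a DnaJ-type co-chaperone. In these 3 peaks the replicate signals lay within 1.5 times of each other, and the peaks ranked 52, 61 and 96 in the thresholded list.

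Neighbours of other peaks among the 25 strongest had varied roles. A signal of 205 at F54H12.9 lay 9 bp upstream of eef-1B.1, an elongation factor subunit. In the single replicates it was 139 in replicate 1 and 50.7 in replicate 2, the widest gap among the 10 strongest. C56C10.15 and C56C10.14 shared a peak of 192 that lay 430 bp upstream of icd-1, the beta subunit of the nascent polypeptide-associated complex. LLC1.120 had a signal of 189 at 235 bp upstream of dld-1, dihydrolipoamide dehydrogenase. The signal was 235 at F57B10.17 beside tre-1 (a trehalase), and 182 at F12F6.14 beside sec-24.1 (a COPII coat subunit). A signal of 155 at Y38F2AR.17 lay 277 bp upstream of trap-3, a subunit of the translocon-associated protein complex, and one of 172 at T10C6.19 lay 135 bp upstream of the histone gene his-3. Since a promoter and an ncRNA gene stood at the same summit in each of these, the peaks cannot be assigned to one rather than the other.

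Further peaks of the 25 lay near starts of other kinds of genes. The peak at C24G6.10 (158) lay 11 bp upstream of nhr-47, a nuclear hormone receptor gene, and the peak at F46B6.15 (160) lay 325 bp upstream of ztf-7, a zinc finger gene. F52D10.7, with 151, lay 546 bp upstream of ftt-2, a 14-3-3 protein gene. F25D1.10, with 158, lay 651 bp upstream of ppm-1.A, a protein phosphatase gene. Of all 25 peaks, 20 were at genes in promoters, 2 in introns outside promoters and 3 in neither place. Among those counted in promoters, F54D5.22 also lies in an intron of dhgd-1 and T28F4.7 in an intron of T28F4.1. All 25 were among the top candidates of both replicates.

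**Figure D4:**
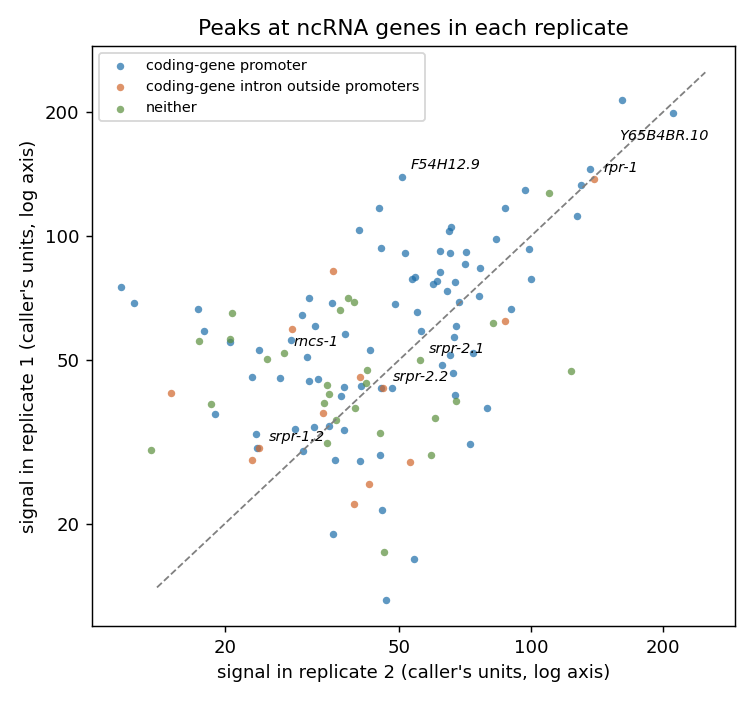
Signal in replicate 1 (y axis) against replicate 2 (x axis) for the 122 of 126 peaks at ncRNA genes that overlap a candidate in both lists, each in its own caller units on log axes, coloured by location, with a dashed line of equal signal and 7 genes named. The strongest peaks, such as Y65B4BR.10 and rpr-1, lie near the line, while F54H12.9 lies above it and weaker peaks scatter to both sides.

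Replicate signals were not scaled to each other, so their ratio describes the 2 lists only. Over the 122 peaks with an overlapping candidate in both, replicate 1 had a median signal of 53.0 and replicate 2 of 45.0. The median ratio of replicate 1 to replicate 2 was 1.17, with a range from 0.28 to 6.48, beside a median of 1.09 over 1886 nuclear peaks. At 21 of the 122 the ratio was above 2 and at 8 it was below 0.5, beside 269 and 144 of the 1886.

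Outside promoters the strongest peak stood at rpr-1, the RNA of RNase P. This gene of 253 bp lies at chrI:13463955-13464207 on the plus strand, in an intron of ints-8, an Integrator complex subunit. Its signal was 279 in the pooled list, 138 in replicate 1 and 139 in replicate 2, at a summit 26 bp downstream of the start of rpr-1 and 865 bp downstream of the start of ints-8. The peak ranked 102 of 1980. The next intronic peaks were 153 at F47F6.15 and F47F6.13 in lin-42, the worm's Period-like gene, and 116 at K10C3.9 in K10C3.4. Signals of 91.7 at srpr-2.2 in klp-6, a kinesin gene, and 90.8 at F16A11.13 in ppfr-1, a phosphatase regulatory subunit, came after them.

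Among genes in neither place, ZK384.7 on chromosome V had the highest signal, 248 in the pooled list, 128 in replicate 1 and 110 in replicate 2. Its summit lay 61 bp outside the gene and 3365 bp from the start of scl-20. F22E12.9 and F22E12.10 shared a peak of 164, 1745 bp upstream of egl-9, the HIF prolyl hydroxylase gene. R03E9.10 on chromosome X had a peak of 160 with 47.0 in replicate 1 and 123 in replicate 2, 1670 bp downstream of the start of mdl-1, a Mad-like transcription factor gene. A second, weaker summit inside R03E9.10, with a signal of 85.1, was assigned to the overlapping gene R03E9.7, 49 bp from it. For that peak replicate 1 had no overlapping candidate and replicate 2 had one of 12.9. T14F9.7, with 119, and F33A8.11, with 105, completed the 5 strongest.

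Of the 7306 genes, 14 carry a gene-class symbol. A thresholded peak stood at 5 of these 14, and 10 had a pooled candidate, beside the 2.29% and 18.1% of all 7306. Besides rpr-1 they include 5 genes of the srpr class, which encode SRP RNA. srpr-2.1 at chrIII:5211220-5211518 had a signal of 96.7, with 49.9 in replicate 1 and 55.8 in replicate 2. srpr-2.2 at chrIII:5031410-5031708 had 91.7, with 42.8 in replicate 1 and 46.0 in replicate 2, and srpr-1.2 at chrIII:4369468-4369766 had 66.7, with 30.5 and 24.0. All 3 summits lay inside the gene, 208, 136 and 95 bp from its start.

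The other SRP RNA genes had no thresholded peak within reach. srpr-1.1 had a weak pooled candidate of 21.6 inside the gene, where replicate 1 had a candidate of 46.1, rank 1238 in its list, and replicate 2 had none. A thresholded peak of 147 lay 160 bp beyond its end, just past the 100 bp limit, and came mainly from replicate 2, with a candidate of 132 there and one of 28.7 in replicate 1. srpr-3 had no pooled candidate. These genes are near-copies. Over their whole length srpr-1.1 and srpr-1.2 were 98.3% identical, srpr-2.1 and srpr-2.2 were 99.0% identical, and srpr-1.2 and srpr-2.1 were 94.3% identical, while srpr-3 was 99.7% identical to F44A2.13, an overlapping record of the same locus. Reads from one copy may have been placed on another, so the level at each single SRP RNA gene is uncertain.

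rncs-1, an abundant RNA that binds Dicer in C. elegans, had a signal of 81.7 at chrX:1011501-1012347, with 51.9 in replicate 1 and 27.3 in replicate 2. Below the threshold of 65.0, mrpr-1, the RNA of RNase MRP, reached 60.6. Each replicate had 2 candidates there, with summits at bases 7200234 (signal 64.8) and 7200439 (14.3) of chromosome II in replicate 1, and at bases 7200159 (25.2) and 7200511 (34.7) in replicate 2. The stronger summit was thus the first in replicate 1 and the second in replicate 2. tts-1, a long ncRNA, reached 46.0, yrn-1, a Y RNA, reached 44.8, and linc-171 reached 41.7 without a candidate in replicate 2. No pooled candidate stood at lfor-1, lfor-2 or tts-2.

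Several short genes with a peak shared a TATA-like run upstream of their start. The run was noticed in the windows above and counted afterwards, so its counts describe these genes and support nothing further. GTATATA began 20 to 40 bp before the annotated start, on the strand of the gene, at 30 of the 7306 genes (0.411%), beside 0.481% of 19973 protein-coding genes. It was there at 1 of 129 snRNA genes (0.775%) and at none of the 346 snoRNA and 612 tRNA genes. Of the 30 genes 4 had a thresholded peak (13.3%, interval 5.31 to 29.7%), beside 163 of the 7276 others (2.24%, interval 1.92 to 2.61%). A pooled candidate stood at 13 of the 30 (43.3%), beside 18.0% of the others. Of 12 genes with the run 120 to 140 bp before the start none had a thresholded peak, and 1 had a candidate.

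The 4 genes were rpr-1 (279), F08G2.13 (242), W01D2.8 (79.1) and F08G2.12 (77.2). All of them lay outside the reach of snRNA genes by the rule of selection. In rpr-1, W01D2.8 and F08G2.12 the run began 31 bp before the start, and in F08G2.13 it began 32 bp before it. mrpr-1 had it at 35 bp and yrn-1 at 31 bp, both with candidates below the threshold. The 80 bases that end just before each gene, 5′ to 3′ on its own strand, are shown for 6 genes with the run, which is in capitals.
F08G2.13, chrII:13834524-13834603, minus strand, pooled signal 242: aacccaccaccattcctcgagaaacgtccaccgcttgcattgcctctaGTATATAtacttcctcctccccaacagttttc
W01D2.8, chrII:14801428-14801507, minus strand, pooled signal 79.1: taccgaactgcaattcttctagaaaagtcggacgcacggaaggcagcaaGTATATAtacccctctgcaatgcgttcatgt
F08G2.12, chrII:13834955-13835034, minus strand, pooled signal 77.2: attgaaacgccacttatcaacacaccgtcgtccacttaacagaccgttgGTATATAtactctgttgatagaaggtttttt
mrpr-1, chrII:7200153-7200232, plus strand, pooled signal 60.6: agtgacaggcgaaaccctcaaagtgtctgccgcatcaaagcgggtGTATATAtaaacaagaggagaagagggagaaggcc
yrn-1, chrIV:7499428-7499507, plus strand, pooled signal 44.8: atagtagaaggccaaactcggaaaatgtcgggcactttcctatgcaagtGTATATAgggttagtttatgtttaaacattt
B0361.13, chrIII:7278532-7278611, minus strand, no pooled candidate: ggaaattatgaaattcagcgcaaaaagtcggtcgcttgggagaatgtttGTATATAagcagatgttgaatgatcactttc

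Of the 4 peaks, 1 differed clearly between replicates. rpr-1 had 138 in replicate 1 and 139 in replicate 2. F08G2.13 had 112 in replicate 1 and 127 in replicate 2, and W01D2.8 had 37.2 and 33.5, all 3 close to even. F08G2.12 had 64.9 in replicate 1 and 20.7 in replicate 2. F08G2.12 and W01D2.8 also resemble each other and B0361.13 as genes. Aligned over their whole length, F08G2.12 was 73.8% identical to W01D2.8 and 76.1% identical to B0361.13, and W01D2.8 was 69.2% identical to B0361.13. All 3 share a run of 20 bases, in capitals in the gene sequences, given on the minus strand.
F08G2.12, chrII:13834887-13834954: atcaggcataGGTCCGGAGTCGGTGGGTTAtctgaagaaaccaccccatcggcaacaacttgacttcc
W01D2.8, chrII:14801350-14801427: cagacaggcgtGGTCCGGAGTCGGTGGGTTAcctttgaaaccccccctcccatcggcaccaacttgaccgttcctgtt
B0361.13, chrIII:7278469-7278531: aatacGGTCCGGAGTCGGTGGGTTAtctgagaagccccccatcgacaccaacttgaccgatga
B0361.13 had no candidate in the pooled list or in either replicate. The shared gene sequence and the upstream run thus did not go with a peak at all 3 aligned genes. F08G2.13 was not aligned with them. Its summit window, read on the minus strand, also holds GGTCCGGA and TGGGTTA, which begin and end the shared run. How alike F08G2.13 is to the 3 genes was not tested.

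Of the 6 words, GAGAGA was the most frequent at the peaks. It lay within 50 bp of the summit at 32 of 126 peaks (25.4%, interval 18.6 to 33.6%), against 7.94% of equal windows 300 bp to the left and 7.94% of those 300 bp to the right. At the centres of the 7139 genes without a peak it was found in 14.1% (interval 13.3 to 14.9%). It was also at 22.9% of the 1468 other peaks outside small RNA windows, and at 5.18% of all 992797 such windows laid end to end along the nuclear genome. By location it was at 18 of 84 peaks in promoters, 3 of 14 in introns and 11 of 28 in neither. Long runs were rare, with 4 or more overlapping matches at F52H2.13 and T24A11.5 only.

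The remaining words were sparse. TAATTA lay at 2 of 126 peaks (1.59%, interval 0.436 to 5.6%), those at B0393.12 and C36B1.16, against 5.56% of the left and 5.56% of the right flanks, and at 1.77% of other peaks and 4.75% of all windows. TATAAA lay at 1.59% of the peaks, against 14.3% of left and 11.1% of right flanks. CACGTG was at 5 peaks (3.97%), 4 of them among the 28 in neither place, with 5.11% of other peaks and 1.67% of all windows. GTTCNANNC was at 5 peaks (3.97%, interval 1.71 to 8.95%), beside 3.0% of other peaks and 3.53% of all windows. GCGCAGGG was at none of the 126, which allows a share of up to 2.96% (upper Wilson limit). A match is a string of letters and not a bound site, and no match says only that the letters are not in the window.

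The summits were rich in G and C. The median window at peaks of these genes had 52.5% G and C, against 33.7% in the left and 35.1% in the right flanks. At the other 1468 peaks it was 45.5%, at the centres of the 7139 genes without a peak 43.6%, and over all windows of the nuclear genome 34.7%. The part of base composition in the word shares was not tested.

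**Figure D5:**
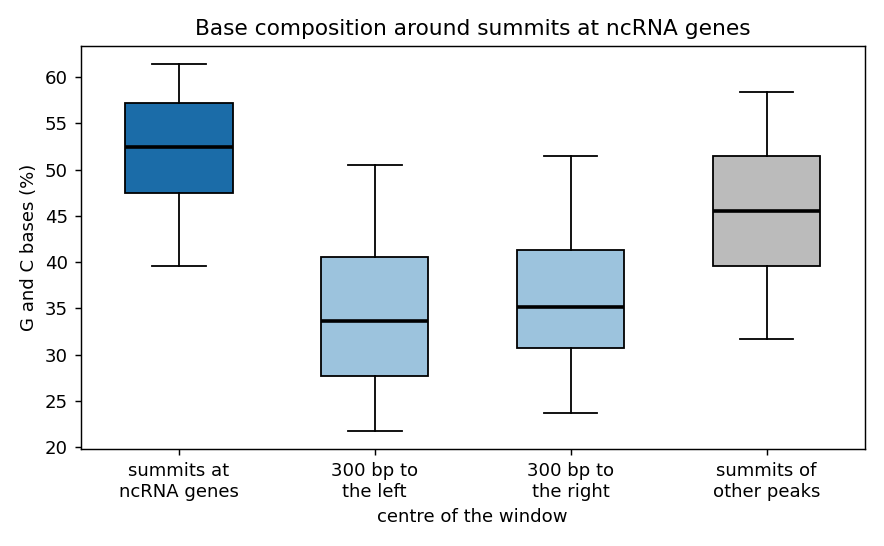
G and C bases in percent (y axis) of windows reaching 50 bp to either side of the 126 summits at ncRNA genes, of points 300 bp to their left and right, and of 1468 summits of other peaks (x axis), as boxes from the lower to the upper quartile with the median in black and whiskers from the 5th to the 95th percentile. The median at ncRNA genes is 52.5%, above the 33.7% and 35.1% of the flanks and the 45.5% of other peaks.

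The genes are not spread evenly over the chromosomes, and neither were the peaks. Chromosome III had the highest share, with 30 of 709 genes (4.23%, interval 2.98 to 5.98%), and X the lowest, with 36 of 2354 (1.53%, interval 1.11 to 2.11%). Chromosome III held 9.7% of the 7306 genes and 21 of their 126 peaks (16.7%). It also held 17.5% of all nuclear thresholded peaks on 13.7% of chromosome length, so its high peak number was not particular to these genes. On the autosomes together 131 of 4952 had a peak (2.65%, interval 2.23 to 3.13%). X held 32.2% of the 7306 genes and 27 of their 126 peaks (21.4%), beside 20.6% of all nuclear thresholded peaks and 17.7% of chromosome length. In promoters 21 of 749 genes on X had a peak (2.8%) and 93 of 1599 on autosomes (5.82%), in introns 1 of 604 and 17 of 1608, and in neither place 14 of 1001 (1.4%) and 21 of 1745 (1.2%). The 27 peaks on X had a median signal of 85.1 and a highest signal of 160, against a median of 98.1 and a highest signal of 412 at the 99 on autosomes. Ratios of summit density near these genes to the rest were 2.78 on X and 4.38 on the autosomes.

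Below the threshold the genes went on along the candidate list. Ranks 1981 to 5000 of the pooled candidates added 178 genes, at 145 of 3020 nuclear candidates. Ranks 5001 to 10000 added 216 genes (172 of 4999 candidates) and ranks 10001 to 20000 added 399 (331 of 10000). Ranks 20001 to 30000 added 361 (297 of 10000). Above the threshold the count was 126 of 1965. Only candidates that were the strongest at a gene were counted, and the share of these fell down the list. A weaker candidate at a gene that had a stronger one was left out. How much of the fall this sets was not tested. The weakest genes above the threshold were T24A11.5 (65.6), C07A12.19 (65.7) and K06A5.10 (66.0). The strongest below it were F38A6.6 (63.8), C46C11.5 (63.3) and F08B6.6 (63.3).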

How the data were processed

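The deposited lists hold peak regions with a summit and a signal, the enrichment given by the authors' peak caller, with a candidate list per replicate, a pooled candidate list and an IDR thresholded list, per the deposited README files. Which aligner, caller and IDR threshold were used is not given in the sources used here. No reads or counts were used, so depth is unknown. Nothing beyond the labels' replicate numbers shows how separate the 2 cultures were. Only ce11 lists were used. They were set against the Ensembl annotation and the RefSeq sequence of WBcel235, whose chromosome ends no region passed. All 1980 thresholded peaks are the pooled candidates of highest signal, so the list was ordered by signal alone, and 1965 are nuclear.

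A peak was found in a replicate if it overlapped, by 1 bp or more, one of that replicate's 1980 strongest candidates. Genes lay in a promoter or intron if 1 bp or more did, promoters first. Named genes are those at the 25 strongest peaks, the 5 strongest in each location, symbol-bearing genes with a peak (up to 10 by pooled signal), and their coding neighbours or hosts. Genes singled out by the upstream run, by similarity or for lying just below the threshold were chosen after their values were seen. Members and lists were chosen with earlier results of these data known. Interval code was tested on simulated data. Tools were biopython 1.88, scipy 1.17.1, pandas 2.3.3, numpy 2.4.6 and Python 3.11.15. Sequences on chromosome I are not shown.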

Additional observations from a re-analysis of the deposited data

How the results depend on the processing

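With the summit inside the gene, within 50 bp or within 200 bp, 1.55%, 1.93% and 2.83% of the genes had a thresholded peak, and with the 990 strongest peaks 1.19% had one, at 66 distinct peaks. Of the genes at those 990, 83.9% lay in promoters and 4.6% in introns, and 87.9% of the 66 peaks were among the top candidates of both replicates. With all nuclear ncRNA genes, those beside small RNA genes included, the share was 4.82% at 323 peaks, 47.9% of the genes with a peak lay in promoters and 27.3% in introns, the density ratio was 8.43, and 32.2% of the peaks lay on X. A promoter of 500 bp upstream to 100 bp downstream held 54.5% of the genes with a peak. A reciprocal overlap of 50% left 35.7% of the peaks found in both replicates.

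With 1 replicate's 1980 strongest candidates in place of the thresholded list, the share of genes with a peak was 2.19 to 2.59% at 125 to 142 peaks, with 61.9 to 66.1% in promoters, 8.99 to 13.8% in introns and a density ratio of 3.76 to 4.29. Each of these stayed within the interval of the main share or within 1.5 times the main value, as did every value over genes more than 500 bp from small RNA genes. Placing each gene by its summit, a choice made after seeing the data, gave 65.3% in promoters and 10.8% in introns. No paired analysis was possible because there is 1 group. Read depth is unknown, so no limit of detection can be given.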
